A study of Mus musculus with 43 samples.

Results

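The insulin-like growth factor (IGF) system described here comprises 10 mouse genes: the ligands Igf1 and Igf2, the acid-labile subunit Igfals, and the binding proteins Igfbp1 to Igfbp7. They were chosen by name, and each has a row of its own among the 42349 entries of the expression table, so all 10 of 10 were found. IGF1 is made mainly by the liver under the control of growth hormone and circulates bound to binding proteins, with IGFBP3 or IGFBP5 and the acid-labile subunit forming a long-lived ternary complex. IGFBP1 is secreted by hepatocytes, and its transcription is held down by insulin. IRS1, which is absent from the knockout mice by design, carries the signal of the insulin and IGF1 receptors into the cell.

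Female mice aged 15 months gave RNA for Ion Proton sequencing from 4 tissues, namely brain, liver, skeletal muscle and white adipose tissue (WAT) of the inguinal depot. Wild type (WT, Irs1+/+) and Irs1 global knockout (KO, Irs1-/-) mice had either ad libitum (AL) chow or 30% dietary restriction (DR), which was introduced in steps from 10 weeks of age and lasted 12 months. The knockout is global and lifelong, so every tissue lacks the gene by label, and the DR ration was set against the intake of AL controls. The 43 libraries form 16 groups, namely WT and KO mice under AL or DR in each tissue, with 2 libraries in each WT AL group and in WT DR WAT and 3 in each of the others. The deposited table gives a single value for each gene and group with the authors' 95% interval. Values are in FPKM, which scales fragments to transcript length and to library size. No values per mouse were therefore used here, and the depth per library is unknown. Differences are given as log2 ratios between group values, with a standard error (SE) taken from their intervals. It is called where a Wald test passed a false discovery rate (FDR) of 10% over all entries tested in that tissue and comparison. In the members with an FPKM of at least 1, the SD behind these intervals ranged from 11.8% of the value (lowest for Igfbp5) to 98.2% (highest for Igfbp6).

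Several features of the groups touch the results below. Irs1 itself did not show the loss that the genotype labels give: of 8 comparisons within a tissue and diet, the labelled KO group had the lower value in 1. In liver its FPKM was 5.95 in KO AL and 4.70 in WT AL, a log2 difference of 0.34 (SE 0.53) that was not called. The only call was in brain, where KO DR was above WT DR by 1.35 (SE 0.40). The study genotyped its mice, and it reported KO AL mice to be lighter and leaner than WT AL mice, with less plasma leptin. Why the Irs1 values did not follow the labels was not tested. Groups are therefore named by their labels, and a direction between genotypes is one between labelled groups. Each tissue carried its defining markers, with all 7 hepatocyte markers in liver, all 7 muscle fibre markers in skeletal muscle, all 5 neuron markers in brain and all 5 adipocyte markers in WAT at an FPKM of at least 1 in every group. Among the muscle groups WT DR stood apart, because all 7 hepatocyte markers were also above 1 there. Their summed FPKM was 2542 against 20.5 to 107 in the other muscle groups. WAT carried hepatocyte markers as well, with sums of 689 in WT AL, 386 in WT DR, 652 in KO AL and 99.7 in KO DR. Their median in WAT was 1.13%, 0.298%, 0.596% and 0.0623% of the liver level in the same order. Their part in the WAT values of members highest in liver was not tested. In bulk tissue, fewer cells of a type and less RNA per cell cannot be told apart.

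On the GRCm38 build, 4 of the binding protein genes lie in 2 pairs. Igfbp1 (chromosome 11, 7197782 to 7202546, plus strand) is followed by Igfbp3 (7206086 to 7213923, minus strand), with 3539 bases between them. Igfbp2 (chromosome 1, 72824503 to 72852474, plus strand) is followed by Igfbp5 (72857932 to 72874884, minus strand) with 5457 bases between. The promoters of Igfbp1 and Igfbp2 are shown because these genes gave the largest called differences below. RefSeq promoter windows (GRCm38.p6) were matched for 10 of 10 members, 16 windows in all, and the 250 bases before the annotated start are printed 5′ to 3′ on the coding strand. They come from chr11:7197537-7197786 (plus strand) and chr1:72824230-72824479 (plus strand).
Igfbp1: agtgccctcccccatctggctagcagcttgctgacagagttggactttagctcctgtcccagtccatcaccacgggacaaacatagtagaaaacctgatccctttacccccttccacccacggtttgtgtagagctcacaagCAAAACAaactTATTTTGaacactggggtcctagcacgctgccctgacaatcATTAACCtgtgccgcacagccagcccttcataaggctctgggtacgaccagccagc
Igfbp2: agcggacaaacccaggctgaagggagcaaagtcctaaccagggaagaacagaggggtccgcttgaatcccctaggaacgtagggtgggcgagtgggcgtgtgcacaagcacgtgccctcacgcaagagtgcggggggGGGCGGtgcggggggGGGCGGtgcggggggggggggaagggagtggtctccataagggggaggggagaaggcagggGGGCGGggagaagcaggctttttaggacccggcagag

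Capitals mark matches to the motifs searched on both strands. In Igfbp1 these are CAAAACA and TATTTTG, the letters at the ends of the known insulin response sequence, which begin 108 and 97 bases before the start, and ATTAACC, a sequence like that bound by the liver factor HNF1, which begins 56 bases before it. They do not overlap one another. Of 32851 mouse windows of the same 250 bases, 5.56% held CAAAACA, 3.95% held TATTTTG and 1.63% held ATTAACC. In the window of Igfbp2 shown, the capitals are 3 copies of GGGCGG, the GC box, which 32.7% of windows held. The other window of Igfbp2 held none of the motifs searched. The spaced motif TTCNNNGAA, the form bound by the growth hormone effector STAT5, was found in 2 of the 3 windows of Igfals and in 7.02% of all windows. A match is a description of letters and not evidence of binding.

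Most members ranked highest in the same tissue throughout. Igf1, Igfals, Igfbp1, Igfbp2 and Igfbp4 had their highest FPKM in liver in all 4 genotype and diet groups, Igf2 in brain, and Igfbp3, Igfbp6 and Igfbp7 in WAT. Igfbp5 was highest in WAT in 3 groups and in skeletal muscle in KO DR, where its values in skeletal muscle (42.5) and WAT (41.0) did not differ beyond their intervals. Between neighbours in the order of the 4 tissues, 65 of 113 tested steps differed at the FDR of 10%. By group this was 16 of 28 steps in WT AL, 13 of 29 in WT DR, 18 of 28 in KO AL and 18 of 28 in KO DR. Of all tests between tissues, 23.2%, 27.3%, 28.6% and 30.2% passed in these groups. Those shares cover all 6 pairs of tissues, while the member steps join only neighbours ordered by the same values, so the measures are unlike. The step from the highest tissue to the next passed in every group for Igfals, Igfbp1, Igfbp2, Igfbp6 and Igfbp7. For Igf1 it did not pass in WT AL (liver 229 and WAT 113 FPKM) or in WT DR. For Igf2 it passed in KO DR only, and not in WT AL (brain 82.1 and skeletal muscle 19.4). Igfbp4 passed it in KO AL only, Igfbp3 in every group but WT DR, and Igfbp5 in none.

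**Figure D1:**
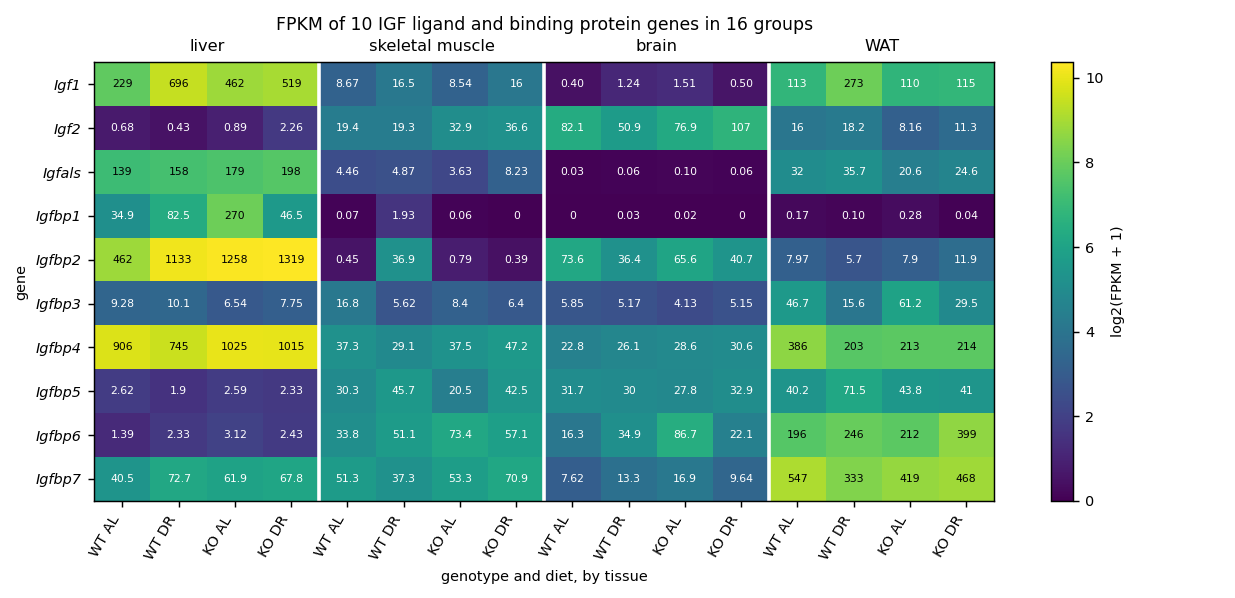
Group FPKM of the 10 genes (rows) in the 16 groups (columns, by tissue), printed in each cell and coloured by log2(FPKM + 1). Igf1, Igfals, Igfbp1, Igfbp2 and Igfbp4 are brightest in liver and Igf2 in brain, and Igfbp2 in skeletal muscle is at 36.9 in WT DR and below 1 in the other 3 groups.

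Igf1, the main circulating growth factor of the family, was not called between any groups in any tissue. In liver its FPKM was 229 in WT AL, 696 in WT DR, 462 in KO AL and 519 in KO DR. WT AL was the lowest, but the intervals of all 4 groups overlapped, and the difference was 1.01 on the log2 scale for KO AL (SE 0.94) and 1.60 for WT DR (SE 0.94) against WT AL. The hepatocyte markers moved with it, with a summed FPKM of 56721 in WT AL against 115481 to 139273 in the other liver groups, and their part in the value was not tested. In WAT Igf1 was at 113, 273, 110 and 115 FPKM in the same order of groups, and the higher value of WT DR (log2 difference 1.27, SE 1.15) came with an interval that reached from 0 to 683. In skeletal muscle it was between 8.54 and 16.5, and in brain between 0.40 and 1.51.

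Igf2, the ligand best known for growth before birth, made up 97.6% to 99.5% of the summed ligand FPKM in brain and at most 0.43% of it in liver. Its brain FPKM was 82.1 in WT AL, 50.9 in WT DR, 76.9 in KO AL and 107 in KO DR. All 4 intervals overlapped, and KO DR exceeded WT DR by 1.07 on the log2 scale (SE 0.72), which was not called. Choroid plexus markers had the same highest and lowest groups in brain, with summed values of 16.6, 9.36, 14.2 and 26.6 for the 5 measured of 6 listed, and their part in the order was not tested. In skeletal muscle Igf2 was at 19.4 and 19.3 in WT AL and WT DR and at 32.9 and 36.6 in KO AL and KO DR, with log2 differences of 0.76 (SE 0.76) under AL and 0.93 (SE 0.77) under DR.

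Igfals, which encodes the liver-derived acid-labile subunit, had a narrow range in liver, with 139 in WT AL, 158 in WT DR, 179 in KO AL and 198 in KO DR. None of its differences was called, and that between KO AL and WT AL was 0.37 (SE 0.54) on the log2 scale. Its FPKM was 20.6 to 35.7 in WAT, 3.63 to 8.23 in skeletal muscle and at most 0.099 in brain.

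The binding proteins supplied all the called differences. Between KO AL and WT AL, 1 of 34 tests of a member in a tissue passed the FDR of 10%, where 0.631% of all tests passed in the 4 tissues together. This was Igfbp1 in liver, where 0.316% of all tests passed. Its FPKM was 34.9 in WT AL, 82.5 in WT DR, 270 in KO AL and 46.5 in KO DR. KO AL stood alone, since its interval (173 to 368) did not meet that of any other liver group, and the intervals of the other 3 overlapped. Igfbp1 rose 7.75-fold in KO AL against WT AL (log2 difference 2.95, SE 0.49, Wald test). The median of all tested liver entries was 0.16 higher in KO AL, and relative to it the difference of Igfbp1 was 2.79.

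KO DR liver was far below KO AL. Igfbp1 fell in the liver of KO DR against KO AL by 2.54 on the log2 scale (SE 0.43), one of 2 members called among 35 tests, where 0.546% of all tests passed in the 4 tissues and 0.611% in liver. KO DR was 0.83 lower than WT DR on the log2 scale (SE 0.54), which was not called, and WT DR was 1.24 above WT AL (SE 0.59), also not called. The genotype difference under DR was thus lower than that under AL by 3.78 on the log2 scale (SE 0.72). In this interaction of genotype and diet, 2 of 36 member tests passed against 0.245% of all tests, and 0.086% in liver.

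Red blood cell markers were also higher in the KO livers, with a summed FPKM of 13569 in KO AL and 12047 in KO DR against 2681 in WT AL and 3469 in WT DR. The hepatocyte sum was 56721 in WT AL, 129809 in WT DR, 115481 in KO AL and 139273 in KO DR. It was thus higher with the called rise of Igfbp1 in KO AL against WT AL, where the 7 markers had a median log2 difference of 0.99 and 0 were called, and it was not lower where Igfbp1 fell between KO AL and KO DR. Muscle fibre markers were at 1.69 in WT AL, 4.32 in WT DR, 44.1 in KO AL and 10.3 in KO DR, highest in the same group as Igfbp1. Igfbp1 was at 0.063 FPKM in the skeletal muscle of KO AL. The part of hepatocyte, blood cell and muscle fibre content in the result was not tested.

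**Figure D2:**
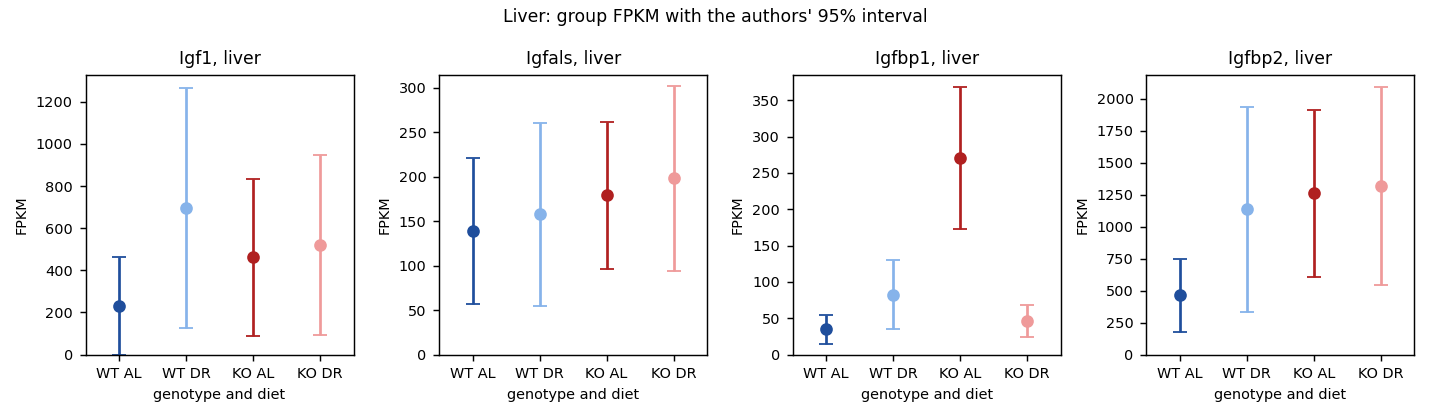
FPKM of Igf1, Igfals, Igfbp1 and Igfbp2 in liver of the 4 genotype and diet groups. Points are the group values and bars the authors' 95% interval. Igfbp1 is at 270 in KO AL and between 34.9 and 82.5 in the other groups, while the intervals of Igf1 and Igfals overlap in all 4.

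Igfbp2, a binding protein that the liver also secretes and that is known to respond to feeding and growth hormone, was lowest in the liver of WT AL. Its FPKM was 462 in WT AL, 1133 in WT DR, 1258 in KO AL and 1319 in KO DR. WT AL was lower by 1.44 on the log2 scale than KO AL (SE 0.58) and by 1.29 than WT DR (SE 0.68), and neither difference was called. The hepatocyte sums given above had WT AL lowest as well, and their part was not tested. KO DR and KO AL differed by 0.07 (SE 0.56). Igfbp4 was the leading binding protein in WT AL liver with 62.2% of the summed binding protein FPKM, and Igfbp2 led in the other groups with 55.3% in WT DR, 47.9% in KO AL and 53.6% in KO DR. Igfbp4 itself was at 906, 745, 1025 and 1015 in the same order of groups, with broad overlapping intervals.

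In skeletal muscle the largest difference of any member was found for Igfbp2. Its FPKM was 0.45 in WT AL, 36.9 in WT DR, 0.79 in KO AL and 0.39 in KO DR. WT DR was high alone, with an interval from 22.1 to 51.6 against an upper bound of at most 1.69 in the others. Igfbp2 rose in WT DR against WT AL by 6.35 on the log2 scale (SE 1.31), the 1 member test called of 36, where 0.603% of all tests passed in the 4 tissues and 1.4% in skeletal muscle. It fell in KO DR against WT DR by 6.55 (SE 1.49), again 1 of 36 member tests, against 0.99% of all tests and 2.23% in skeletal muscle. Its interaction of genotype and diet was -7.35 on the log2 scale (SE 2.13) and was not called.

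The hepatocyte markers moved with these Igfbp2 calls. In WT DR skeletal muscle they stood at 0.996% to 3.05% of their level in WT DR liver (median 1.75%), against a median of 0.032% in WT AL, 0.040% in KO AL and 0.083% in KO DR. Igfbp2 stood at 3.25% and Igfbp1 at 2.34% of their liver level in the same muscle group. All 7 hepatocyte markers rose in WT DR against WT AL muscle, with a median log2 difference of 6.89. Igfbp1 was at 0.073 FPKM in WT AL, 1.93 in WT DR and 0.063 in KO AL and was listed at 0 in KO DR, so it too was highest in WT DR, and its difference from WT AL (4.72, SE 1.99) was not called. Igf1, Igfals and Igfbp4, the other members highest in liver, were at 2.37%, 3.09% and 3.90% of liver in WT DR muscle, but at 1.85% to 4.65% in the other 3 groups. The only member call in WT DR against WT AL, and in KO DR against WT DR, was Igfbp2 in skeletal muscle.

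**Figure D3:**
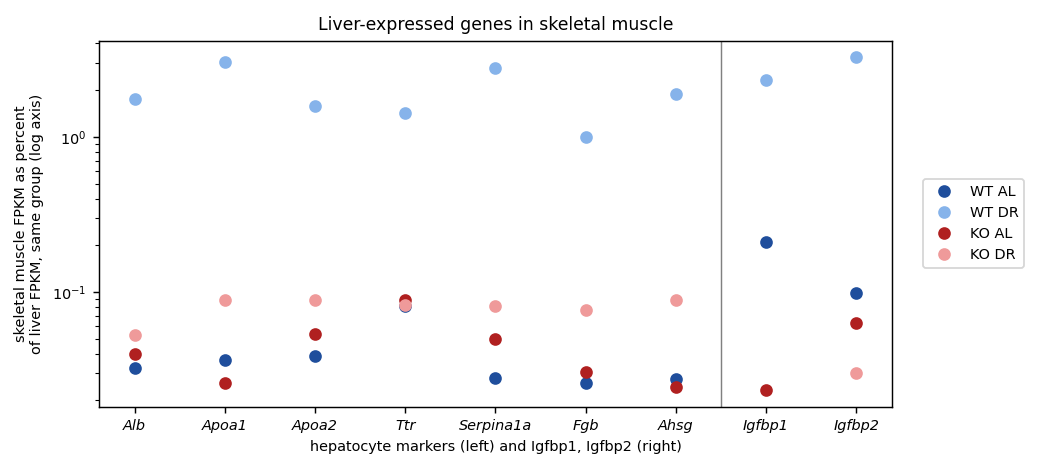
Skeletal muscle FPKM as a percent of the liver FPKM of the same group (log axis) for 7 hepatocyte markers and for Igfbp1 and Igfbp2, with 1 point per group. Every WT DR point lies between 0.996% and 3.25%, and the points of the other groups lie at 0.21% or lower; Igfbp1 is listed at 0 in KO DR and has no point there.

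Igfbp5, a binding protein abundant in muscle and bone, had its lowest skeletal muscle value in KO AL. Its FPKM was 30.3 in WT AL, 45.7 in WT DR, 20.5 in KO AL and 42.5 in KO DR. Both AL groups were below both DR groups, and the interval of KO AL (13.7 to 27.3) lay under those of WT DR and KO DR. Igfbp5 was lower in KO AL than in WT DR by a log2 difference of -1.16 (SE 0.29). The rise from KO AL to KO DR was 1.05 (SE 0.33) and that from WT AL to WT DR was 0.59 (SE 0.33), and neither was called. The diet differences of the genotypes were not shown to differ (interaction 0.46, SE 0.47). The summed muscle fibre markers had the same split by diet, at 83275 in WT AL and 86438 in KO AL against 121667 in WT DR and 119540 in KO DR. Between KO AL and WT DR, where Igfbp5 was called, the 7 muscle fibre markers had a median log2 difference of -0.51 and 0 were called. In that comparison all 7 hepatocyte markers and 1 of 5 markers of meninges and fibroblasts were called lower in KO AL. Called higher were 2 of 5 adipocyte markers and 3 of 5 red blood cell markers. The part of these cells in the Igfbp5 difference was not tested.

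Comparing KO AL with WT DR directly, 3 of 36 member tests passed, against 0.985% of all tests. In skeletal muscle, where 1.89% of all tests passed, these were Igfbp5 and Igfbp2, the latter lower in KO AL by a log2 difference of -5.54 (SE 0.87), with the hepatocyte markers of WT DR muscle as above. In liver, where 0.89% passed, Igfbp1 was higher in KO AL by 1.71 (SE 0.49). The last of these calls was lost at an FDR of 5% and when differences were centred on the median of all tested entries. Igfbp1 in liver was the only one of these 3 calls that did not involve the skeletal muscle of WT DR.

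Igfbp6, which binds IGF2 in preference to IGF1, was called in brain. Its FPKM was 16.3 in WT AL, 34.9 in WT DR, 86.7 in KO AL and 22.1 in KO DR. KO AL was the highest, with an interval (48.4 to 125) above those of the other 3 groups. Igfbp6 fell in KO DR against KO AL by 1.97 on the log2 scale (SE 0.45), where 0.365% of all brain tests passed. KO AL was 2.41 above WT AL (SE 0.66), which was not called, and WT DR was 1.09 above WT AL (SE 0.62). The genotype difference under DR was lower than that under AL by 3.06 on the log2 scale (SE 0.77), where 0.396% of brain tests passed.

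Blood and muscle transcripts were highest in the same brain group. The summed FPKM of 5 red blood cell markers was 1032 in WT AL, 971 in WT DR, 9907 in KO AL and 3475 in KO DR, and that of 7 muscle fibre markers was 2.94, 9.32, 36.0 and 6.24. None of the red blood cell markers and 1 of 5 tested muscle fibre markers was called between KO DR and KO AL. The summed markers of meninges and fibroblasts (5 measured of 6 listed) were at 12.5, 9.45, 8.69 and 10.6, lowest in KO AL. The part of these cells in the result was not tested.

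Igfbp6 in skeletal muscle was 33.8 in WT AL, 51.1 in WT DR, 73.4 in KO AL and 57.1 in KO DR. KO AL was again the highest, 1.12 above WT AL (SE 0.49), but this was not called. In WAT it was at 196, 246, 212 and 399, with KO DR highest and overlapping intervals.

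**Figure D4:**
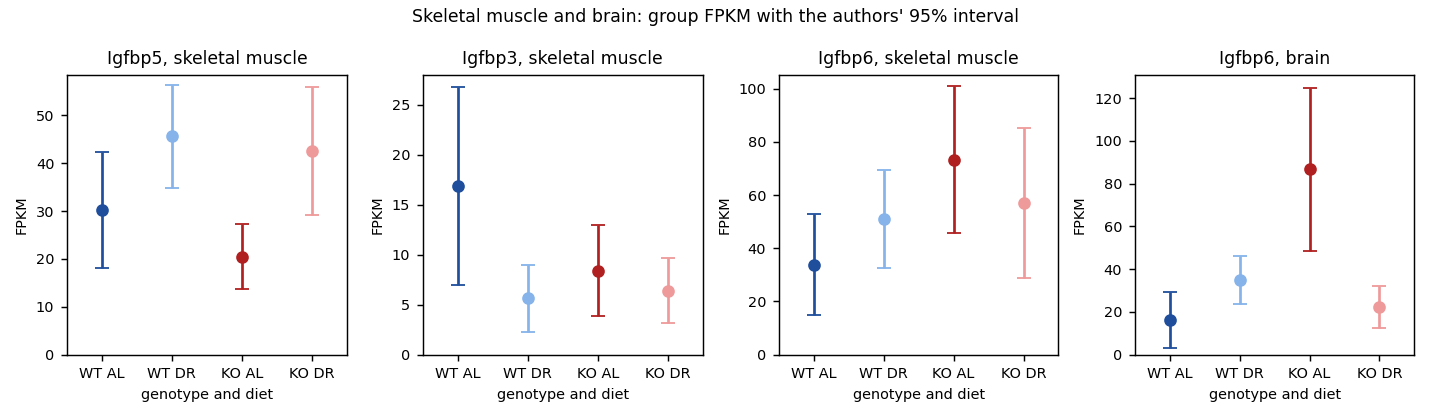
FPKM of Igfbp5, Igfbp3 and Igfbp6 in skeletal muscle and of Igfbp6 in brain, by genotype and diet. Points are the group values and bars the authors' 95% interval. Igfbp6 in brain is at 86.7 in KO AL and at 34.9 or lower elsewhere, and Igfbp5 in muscle is at 20.5 in KO AL and at 45.7 and 42.5 in the DR groups.

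Igfbp3, the main carrier of circulating IGF1, was lower under DR in WAT at 15.6 in WT DR against 46.7 in WT AL and 29.5 in KO DR against 61.2 in KO AL, but without a call (log2 difference -1.59, SE 0.75, and -1.05, SE 0.56). In WAT the summed markers of pericytes and smooth muscle were also lower under DR, at 152 in WT DR against 662 in WT AL and 245 in KO DR against 371 in KO AL, and those of endothelium were at 88.4 against 182 and 109 against 134. Their part was not tested. In skeletal muscle Igfbp3 was 16.8 in WT AL, 5.62 in WT DR, 8.40 in KO AL and 6.40 in KO DR. WT AL was highest, and the difference of WT DR from it was -1.58 (SE 0.60). The summed adipocyte markers of skeletal muscle were at 1588, 558, 1834 and 2432 in the same order, lowest in the same group as Igfbp3, and their part was not tested. In liver Igfbp3 was between 6.54 and 10.1.

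Igfbp7, a related secreted protein with low affinity for IGFs, was the most abundant binding protein in WAT in all 4 groups, with 547 in WT AL, 333 in WT DR, 419 in KO AL and 468 in KO DR. The intervals overlapped, and the difference of WT DR from WT AL was -0.72 (SE 0.74). Igfbp4, a binding protein cleaved by the protease PAPP-A, was at 386, 203, 213 and 214 in WAT, where WT DR differed from WT AL by -0.93 (SE 1.48). Both genes were highest in WT AL and lowest in WT DR, as were the WAT marker sums of pericytes and smooth muscle and of endothelium given above and that of macrophages (101, 31.6, 50.7 and 42.8 in the same order), and their part was not tested. In brain Igfbp2 was at 73.6, 36.4, 65.6 and 40.7, so that both DR groups were below both AL groups, with a difference of -1.02 (SE 0.55) in WT that was not called.

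**Figure D5:**
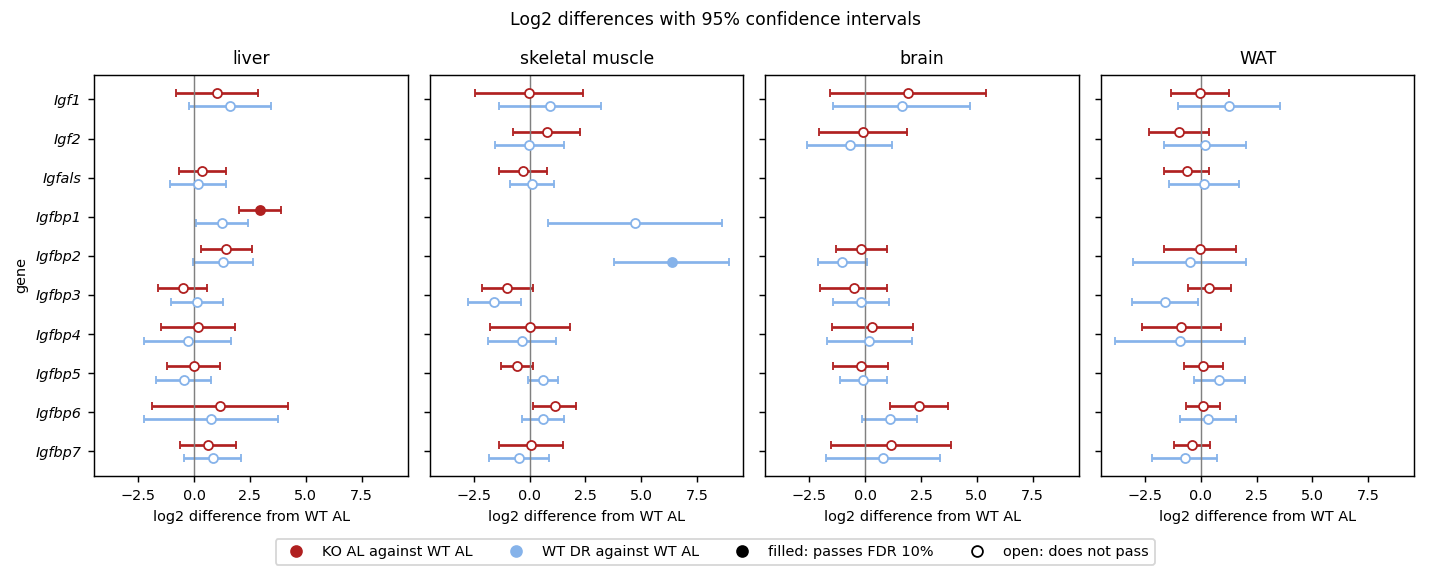
Log2 difference from WT AL of KO AL (red) and WT DR (blue) for each gene in each tissue, with bars for its 95% confidence interval. Filled points pass the FDR of 10%: Igfbp1 in liver of KO AL at 2.95 and Igfbp2 in skeletal muscle of WT DR at 6.35. Both comparisons share the WT AL groups.

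In all 5 comparisons, 8 of 177 tests between pairs of groups were called, in 4 of the 10 members, where 0.751% of all tests in these comparisons passed. The called tests of Igfbp2 in skeletal muscle all involved WT DR, and those of Igfbp1 in liver all involved KO AL. The comparisons share groups, so these tests are not independent. With 36 tests of a member in a tissue between WT DR and WT AL, 5 had an unadjusted p under 0.05, and with 34 between KO AL and WT AL, 4 had. Over all entries 3.42% and 2.9% of tests did. The median log2 difference over the members tested was 0.031 in KO AL and 0.19 in WT DR against WT AL, beside 0.042 and -0.072 over all tested entries. With the SD of each group divided by the root of its number of libraries, the member tests called were 4 for KO AL and 5 for WT DR against WT AL, 4 for KO DR against WT DR, 6 for KO DR against KO AL and 7 for KO AL against WT DR. The shares of all tests called were then 3.18%, 3.39%, 8.42%, 4.86% and 6.92%. The interaction had 3 member calls, with 2.52% of all tests. Among the added calls were Igfbp2 in liver, for both KO AL and WT DR against WT AL, and Igfbp6 in the brain of KO AL against WT AL.

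Other genes that act with the IGFs were taken from a list. Of its 40 genes (receptors and adaptors, the growth hormone axis, proteases of the binding proteins and their inhibitors, related secreted proteins, and imprinted or mRNA-binding genes), 35 had a row of their own. Between KO AL and WT AL, 0 rose and 2 fell in 97 tests, both Wisp2, a secreted protein of the CCN family, whose FPKM was 14.0 in WT AL and 2.46 in KO AL skeletal muscle and 93.5 and 17.4 in WAT. Between WT DR and WT AL, 0 rose and 1 fell in 95 tests, again Wisp2 in skeletal muscle (1.09 in WT DR, log2 difference -3.68, SE 0.70). Between KO DR and WT DR, 1 rose and 0 fell in 94 tests, namely Irs1 itself in brain (4.14 and 1.62 FPKM). Between KO DR and KO AL 0 of 96 were called, and between KO AL and WT DR 0 of 97. These counts are to be read beside the shares of all tests given for the same comparisons above, which lay between 0.546% and 0.99%. In the interaction of genotype and diet 1 of 98 tests passed against 0.245% of all tests, and it was Wisp2 in skeletal muscle (4.08, SE 1.02). The receptors Igf1r and Insr were called in none of the 5 comparisons.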

How the data were processed

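RNA of 43 libraries in 16 groups, assigned by the labels alone, was sequenced as single-end reads on an Ion Proton instrument after poly-A selection. The authors trimmed the reads (cutadapt 1.5), mapped them to GRCm38 with BBMap in repeated rounds and ran Cuffdiff 2.2.1 with normalization across libraries, and deposited FPKM values, 1 per entry and group, with a 95% interval and a status. Of the 42349 entries, 873 join overlapping genes and no member is among them. Values are relative, and multi-mapped reads were shared out by the authors' software.

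Here the SD of a group was the distance from its FPKM to the upper bound, divided by 2. Log2 ratios without pseudocount were examined by Wald tests, two-sided, with a delta-method SE and a normal reference, for every entry whose FPKM exceeded 0 in each group used and reached 1 in any. Benjamini-Hochberg adjustment covered all entries of one tissue and comparison, at an FDR of 10%. The procedure was run on simulated data drawn with the same SDs that the test was given. That run cannot show whether the authors' intervals hold with so few libraries. Per the study's methods, the libraries of a group came from different mice. The interaction subtracted the KO to WT difference under AL from that under DR. Named genes were all 10 members, Irs1, called genes of a related list, and the 2 entries most like each member (Pearson r of tissue-centred log2(FPKM + 1)). Members and lists were chosen with earlier results of these data known. Alternatives were non-overlapping intervals, an FDR of 5%, the SD divided by the root of the number of libraries, pseudocounts of 0.1 and 1, no minimum FPKM, a minimum of 5, centring on the median, and leaving out joined entries. Leaving out WT DR skeletal muscle was added after the values were seen. It drops the tests of that group, so its counts follow from where the calls lay. Positions are from GENCODE M21 (GRCm38). The table's Igf1, Igf2, Igfals and Igfbp7 rows span other ends than that annotation. Python 3.11.15 was used with numpy 2.4.6, pandas 2.3.3, scipy 1.17.1 and matplotlib 3.10.9.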

Additional observations from a re-analysis of the deposited data

Results flagged for a closer look

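The genotype difference of Igfbp1 in liver depended on diet by the test of the interaction (log2 -3.78, SE 0.72). The FPKM of KO AL was 270 against 34.9 in WT AL, while that of KO DR was 46.5 against 82.5 in WT DR.

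The genotype difference of Igfbp6 in brain also depended on diet by that test (log2 -3.06, SE 0.77), with 86.7 in KO AL against 16.3 in WT AL and 22.1 in KO DR against 34.9 in WT DR. The red blood cell marker sum was 9907 in KO AL brain and at most 3475 in the other brain groups, and its part was not tested.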

How the results depend on the processing

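Of all member differences tested, 54 were recomputed one by one. Over their 480 alternative values 446 kept their direction and their side of the threshold, 32 passed it newly, 2 lost it and 0 turned. With the main settings only 8 of 177 tests between pairs of groups and 2 of 36 interaction tests were called. Most values that kept their side thus belonged to differences not called, and the 446 are no rate of stability for the family. The 2 lost were Igfbp1 between KO AL and WT DR in liver, at an FDR of 5% and with centring on the median. The member tests called, in which a member can count in several tissues, went between KO AL and WT AL from 1 to 2 by intervals that do not overlap, with a pseudocount of 1 and with a minimum FPKM of 5, and to 4 with the SD divided by the root of the number of libraries. With that smaller SE they went to 5 for WT DR against WT AL, 4 for KO DR against WT DR, 6 for KO DR against KO AL and 7 for KO AL against WT DR. For WT DR against WT AL, pseudocounts of 0.1 and 1 each gave 2, and for KO AL against WT DR non-overlapping intervals gave 5. Leaving out WT DR skeletal muscle, an alternative chosen after seeing the data, drops every test of that group. The counts were then 0 for WT DR against WT AL, 0 for KO DR against WT DR and 1 for KO AL against WT DR. They were fixed by where the calls lay and are no check on them. Of the 20 genes most like a member, 7 were shared with a pseudocount of 0.1. The causes were not tested. No interaction by non-overlapping intervals could be formed. The interaction of Igfbp2 in skeletal muscle, not called with the main settings, passed with the smaller SE and with pseudocounts of 0.1 and 1. No paired analysis was possible because the columns hold group values only, and for the same reason no replicate could be left out. The median of all tested entries was shifted by up to 0.23 (brain, KO DR against WT DR). Depth is unknown, and precision is that of the authors' intervals.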

Other observations

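The balance of binding proteins to ligands differed between tissues and groups. The summed binding protein FPKM per summed ligand FPKM was 6.33 in WT AL liver, 2.94 in WT DR, 5.68 in KO AL and 4.72 in KO DR. In WAT it was 9.49, 3.00, 8.07 and 9.22 in the same order, lowest in WT DR as in liver, and Igf1 was highest in WT DR in both tissues. In brain it was 1.91, 2.80, 2.93 and 1.32. These ratios are descriptions with no test, and they count transcripts, not protein.

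The entries whose values were most like those of each member, over 16 group values centred within tissue and 16035 entries, were liver genes for 2 of the binding proteins. They were Ugt2b35 (r = 0.937) and Cyp4a31 (r = 0.886) for Igfbp1 and the complement regulator Cfi (r = 0.948) and Fgl1 (r = 0.925) for Igfbp2. For Igf1 they were Clns1a (r = 0.942) and Gm9762 (r = 0.894), for Igf2 Mtx1 (r = 0.874) and Wdr83os (r = 0.871), and for Igfals Tcf15 (r = 0.893) and Rras (r = 0.849). Igfbp3 was followed by Tnks2 (r = 0.922) and Chfr (r = 0.920), Igfbp4 by Sema6b (r = 0.909) and Aim1 (r = 0.899), and Igfbp5 by Hs2st1 (r = 0.869) and Fsd2 (r = 0.807). For Igfbp6 they were Rps27rt (r = 0.926) and Tmem218 (r = 0.918), and for Igfbp7 Abracl (r = 0.866) and Snrpa1 (r = 0.862). The points share libraries and tissues, the ranking ignores the error of the values, and most of these genes changed with the pseudocount. In skeletal muscle, Igfbp1, Igfbp2 and the hepatocyte markers were all highest in WT DR. The part of that group in the r values was not tested.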
